A study of Mus musculus with 12 samples.

Results

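The genes described are the Toll-like receptors Tlr1 to Tlr9 and Myd88, the adaptor protein through which most of them signal. All 10 listed genes were found by probe name among the 750 genes of the mouse PanCancer Immune Profiling panel of the nCounter platform, in which labelled probes bind RNA directly and are counted one by one, without amplification. RNA came from 12 formalin-fixed flank tumors of C57BL/6 mice (Taconic), grown from B16F10, a mouse melanoma line. Each mouse was treated inside the tumor 6 days after implantation, either with saline or with IL-2 and IL-12 fused to a collagen-binding protein, which limits their spread out of the injected tissue. There were 4 groups of 3 tumors: saline collected at 2 days, 1 cytokine dose collected at 2 days (early single dose), 1 dose collected at 8 days (late single dose), and 2 doses given 6 days apart and collected 2 days after the second (repeat dose). One sentence of the submitters' design text counts 4 mice in the repeat-dose cohort, and 3 were analysed here. The saline tumors were 2 days past injection and the late and repeat tumors 8 days past the first, so treatment and tumor age cannot be told apart where those groups are set against saline. The tumor line is a single transplanted line, and every value is from bulk tissue, in which more cells of a type and more RNA per cell cannot be told apart.

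Toll-like receptors sense microbial products and material from damaged cells. Tlr1, Tlr2, Tlr4, Tlr5 and Tlr6 sit mainly at the cell surface and bind lipopeptides, lipopolysaccharide or flagellin, while Tlr3, Tlr7, Tlr8 and Tlr9 sit in endosomes and bind nucleic acids. Myd88 links all of them except Tlr3 to the kinases of the IRAK family and to NF-kappaB, whereas Tlr3 signals through Ticam1 and Tlr4 can use either route. In tumors the receptors are carried largely by macrophages, dendritic cells, neutrophils and B cells, and some also by tumor cells.

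Total counts of the panel genes ran from 392596 to 1232726 per tumor. The housekeeping probes, to which every count was scaled, had a geometric mean of 2680 ± 363 in saline, 1716 ± 410 in the early, 1467 ± 221 in the late and 919 ± 341 in the repeat group (SD, n = 3). Scaled counts therefore rose for most of the panel: against saline the median log2 fold change of the 729 genes tested was 0.56 in the early, 0.78 in the late and 1.19 in the repeat group. With the total count as the scale those medians were -0.43, -0.25 and -0.44. Members are described below on the housekeeping scale. The 5 other scales tried gave lower values for every member in each comparison with saline and turned some directions, which are given beside the gene and listed in the closing section. Of 8 melanocyte markers listed, S100b and Mcam were on the panel and lay above background in all 12 tumors, so the labelled tumor type was checked only through these.

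The promoters of 4 of the members that rose against saline and held a motif match are shown first. Tlr1 and Tlr6, which rose in the repeat group only, also held matches and are described without their sequences. Cytokine-driven factors of the STAT, IRF and NF-kappaB families bind short motifs of known letters. Only windows with a match are printed, so the printed set does not show how often members that rose held one. RefSeq (GRCm38.p6) gave the 250 bases before a transcript start for 8 of the 10 members, in 10 windows. A gene can have several starts, and the start meant below is the one of the printed window, which need not be the outermost. The windows of Myd88, Tlr8 and Tlr9 lie outside the RefSeq gene span, while that of Tlr3 lies wholly inside it, with its start 695 bases from the outer end, and that of Tlr2 has 216 of its 250 bases inside. The search covered both strands for the STAT motif TTCNNNGAA, the IRF motif (a pair of GAAA runs 2 bases apart), the NF-kappaB motif (GGGA, any base, TT, any base, CC) and the PU.1 motif GAGGAAGT. Of 32851 such windows of all genes, 7.02% held the first, 2.98% the second, 0.980% the third and 2.44% the fourth. Capitals mark the matches, each sequence runs 5′ to 3′ along the gene's strand, and all 4 genes lie on the minus strand. Myd88 is shown for a STAT match that overlaps an IRF match, 46 and 40 bases before its start (chr9:119340019-119340268).
Myd88: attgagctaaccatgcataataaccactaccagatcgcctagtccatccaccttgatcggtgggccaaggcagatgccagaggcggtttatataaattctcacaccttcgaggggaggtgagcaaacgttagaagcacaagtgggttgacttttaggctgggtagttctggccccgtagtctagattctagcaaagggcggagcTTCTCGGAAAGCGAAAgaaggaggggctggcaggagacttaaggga
Tlr3 is shown for an NF-kappaB match 211 bases before this window's start and within the gene span (chr8:45410381-45410630).
Tlr3: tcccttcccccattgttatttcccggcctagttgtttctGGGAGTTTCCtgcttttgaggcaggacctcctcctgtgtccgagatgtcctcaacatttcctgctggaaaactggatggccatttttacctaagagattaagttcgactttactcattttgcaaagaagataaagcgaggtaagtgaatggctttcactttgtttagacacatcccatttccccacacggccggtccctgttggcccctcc
Tlr2 is shown for an NF-kappaB match that reads the same on both strands, 172 bases before this window's start and within the gene span (chr3:83841609-83841858).
Tlr2: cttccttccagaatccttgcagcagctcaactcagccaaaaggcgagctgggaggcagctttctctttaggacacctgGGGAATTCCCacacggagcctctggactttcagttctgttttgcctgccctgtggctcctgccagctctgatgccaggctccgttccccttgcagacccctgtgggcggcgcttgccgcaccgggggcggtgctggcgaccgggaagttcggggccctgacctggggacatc
Tlr8 is shown for a STAT match 106 bases before the start (chrX:167264330-167264579).
Tlr8: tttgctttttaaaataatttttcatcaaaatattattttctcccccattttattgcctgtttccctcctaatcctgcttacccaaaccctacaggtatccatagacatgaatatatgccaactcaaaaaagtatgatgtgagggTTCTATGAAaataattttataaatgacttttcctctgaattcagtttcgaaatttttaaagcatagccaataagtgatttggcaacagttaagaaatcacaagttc
Of the other members, Tlr1 held a PU.1 match in 1 window and a STAT match in another, Tlr6 held 2 overlapping IRF matches on the opposite strand in 1 of its 2 windows, and none of the letters searched occurred in the windows of Tlr5 and Tlr9. Tlr9 rose in every comparison with saline, and a link between matches and changes was not tested. A match is a description of these letters only.

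Against any difference among the 4 groups, 7 of the 10 members passed edgeR's quasi-likelihood test with Benjamini-Hochberg adjustment over all genes (adjusted p under 0.05), where 48.8% of all genes tested passed. The members that did not were Tlr1, Tlr4 and Tlr5. The count of 7 became 2 without saline B or saline C, 3 without repeat A and 4 without early C or late A. Tlr8 varied most over the 12 tumors, with an SD of the log2 scaled count of 1.32, and Tlr4 varied least, with 0.39. The median for panel genes above background in all tumors was 0.72.

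**Figure D1:**
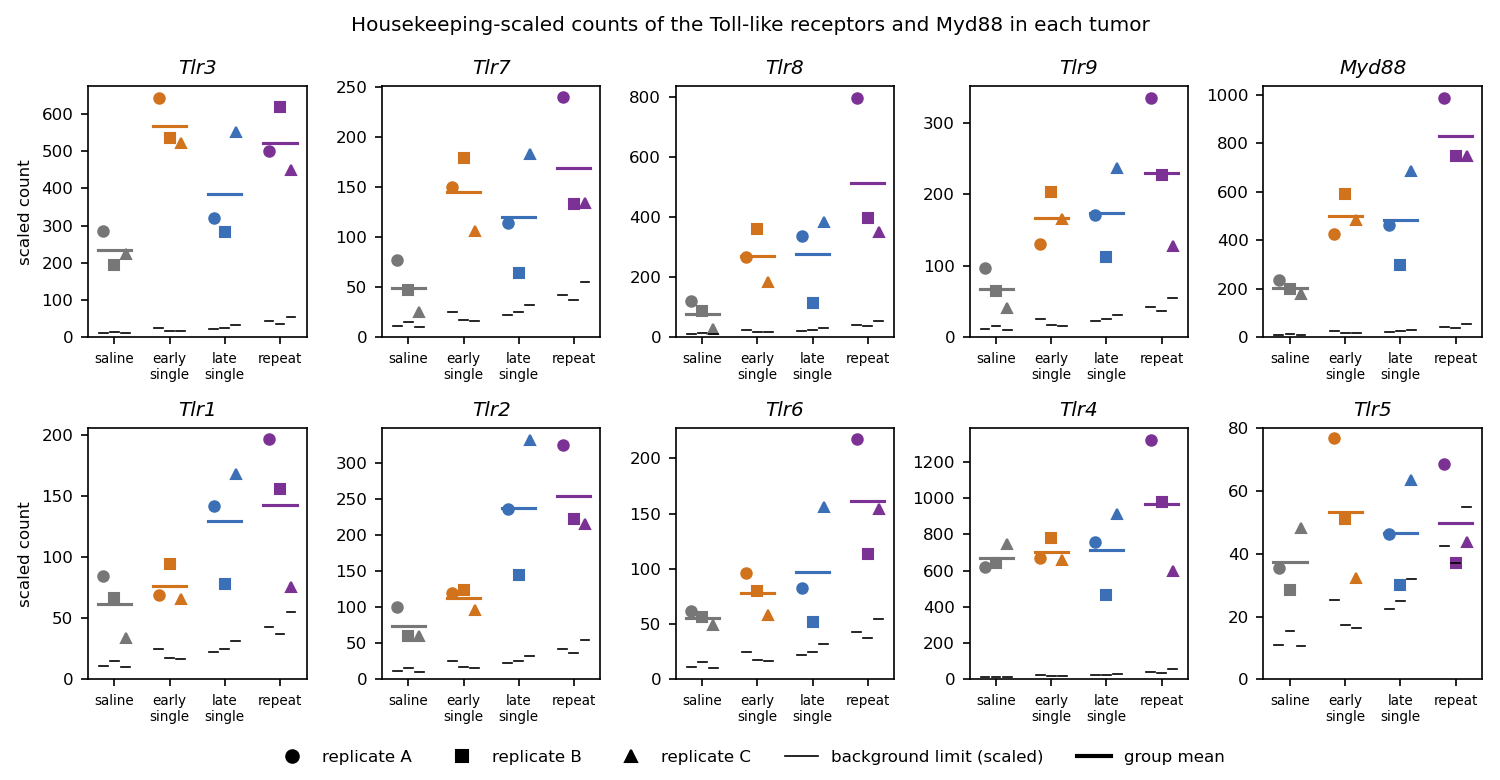
Scaled counts (raw count divided by the relative housekeeping mean) of each member on the vertical axis, for the 4 groups on the horizontal axis; each symbol is 1 tumor, colored bars are group means (n = 3) and short black bars are each tumor's background limit on the same scale. Tlr3, Tlr7, Tlr8, Tlr9 and Myd88 in the early group lie above all saline tumors, Tlr2 is higher in the late and repeat groups, and Tlr4 overlaps between groups.

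The cytokine dose was followed at 2 days by higher counts of the 4 endosomal receptors and of Myd88. These 5 members rose in the early group against saline, none fell and 5 did not pass, where 30.5% of all genes rose and 0.686% fell. The 5 were also the members whose 3 early tumors lay above all 3 saline tumors, an arrangement about as common over the panel (49.9% of all genes). None of the 5 cell-surface receptors passed, and the difference between the endosomal and the surface receptors was not tested. The median log2 fold change of the members was 0.95, beside 0.56 for all genes. The count of 5 became 2 without saline B, saline C, early A, early B or late A, and 3 without repeat B; Tlr3 and Myd88 kept their calls whichever tumor was left out. On other scales those calls ended too: with the total count Tlr3 was 0.29 (adjusted p = 0.266) and Myd88 0.30 (adjusted p = 0.169), and with the positive controls they were 0.84 and 0.92 (adjusted p = 0.258 and 0.231).

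Tlr3, the endosomal receptor for double-stranded RNA, had scaled counts of 285, 194 and 225 in the saline tumors A, B and C. In the early tumors it had 643, 535 and 521. The lowest early tumor lay well above the highest saline tumor, and the log2 fold change was 1.27 ± 0.27 (SE; adjusted p = 0.00761). The late tumors had 320, 283 and 552, and the repeat tumors 502, 619 and 448. All repeat tumors lay above saline (log2 fold change 1.16 ± 0.27, adjusted p = 0.00422), while late tumor B lay just below the highest saline tumor and the late change of 0.71 ± 0.27 did not pass (adjusted p = 0.0582; 95% interval 0.11 to 1.31). The early group had the highest mean (566 ± 67.0, SD, n = 3), followed by repeat (523 ± 87.5), late (385 ± 146) and saline (235 ± 46.2), and none of the differences among the 3 treated groups passed. The repeat rise of Tlr3 was close to the median of all genes and turned to -0.0013 with TMM scaling and to -0.46 with the total count. Its late change turned to -0.11 and -0.32 on these scales, and its early change fell to 0.64 with TMM scaling, which passed (adjusted p = 0.0457).

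Tlr7, an endosomal receptor for single-stranded RNA, had 76.8, 46.9 and 24.9 in saline and 150, 178 and 106 in the early tumors. Early tumors did not overlap with saline, and the log2 fold change was 1.55 ± 0.48 (adjusted p = 0.0346). Late tumors had 114, 63.9 and 182, of which B lay within the saline range, and the change of 1.28 ± 0.48 did not pass (adjusted p = 0.0563; 95% interval 0.21 to 2.34). Repeat tumors had 239, 133 and 134, all above saline, with a log2 fold change of 1.78 ± 0.49 (adjusted p = 0.00896). Leaving out 1 tumor ended the early call for saline B (adjusted p = 0.107), saline C (0.116), early A (0.0736), early B (0.115) and late A (0.0506). With TMM scaling the early, late and repeat changes were 0.94, 0.45 and 0.57, of which the early one passed (adjusted p = 0.0389, 0.275 and 0.131). On the total-count scale they were 0.60, 0.24 and 0.16 and none passed (adjusted p = 0.135, 0.534 and 0.650).

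Tlr8, an endosomal receptor whose human counterpart recognises single-stranded RNA, showed the largest change of the 10 members in each comparison with saline. Its scaled counts were 120, 86.9 and 26.4 in saline and 268, 361 and 183 in the early tumors, with no overlap (log2 fold change 1.80 ± 0.60, adjusted p = 0.0458). The late tumors had 336, 115 and 385. Late tumor B fell just under saline tumor A, so the groups overlapped, and the change was 1.84 ± 0.61 (adjusted p = 0.0341). In the repeat tumors the counts reached 797, 397 and 349, with a log2 fold change of 2.73 ± 0.62 (adjusted p = 0.00356), a fold of 6.64. Repeat tumor A stood far above the other repeat tumors, and the spread within groups was wide throughout, with a coefficient of variation of 61.1% in saline. The early call ended without saline B (adjusted p = 0.111), saline C (0.121), early A (0.0842), early B (0.147), late A (0.0608), repeat B (0.0589) or repeat C (0.0505). The late call ended without saline B (0.0886), saline C (0.0947), late A (0.0821) or late C (0.130), whereas the repeat call held without any 1 tumor. With TMM scaling the early and late changes were 1.18 and 1.00 and did not pass (adjusted p = 0.0666 and 0.105), whereas the repeat change passed (adjusted p = 0.0149). On the total-count scale the 3 changes were 0.84, 0.80 and 1.10, of which the repeat change passed (adjusted p = 0.123, 0.146 and 0.0374). With the positive controls the repeat change was 1.39 and did not pass (adjusted p = 0.0794).

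Tlr9, the endosomal receptor for unmethylated CpG DNA, had 97.5, 64.6 and 40.7 in saline and 131, 204 and 166 in the early tumors (log2 fold change 1.31 ± 0.43, adjusted p = 0.0423). Late tumors had 171, 112 and 237 (1.36 ± 0.43, adjusted p = 0.0296) and repeat tumors 335, 227 and 128 (1.78 ± 0.44, adjusted p = 0.00511). In all 3 treated groups the lowest tumor lay above the highest saline tumor. The early call ended without saline B (adjusted p = 0.121), saline C (0.146), early A (0.0573), early B (0.141), early C (0.0740), late A (0.0607) or repeat B (0.0586). The late call ended without saline B (0.0940), saline C (0.107), late A (0.0612) or late C (0.127). With TMM scaling the 3 changes were 0.72, 0.56 and 0.57 (adjusted p = 0.108, 0.197 and 0.146), and with the total count 0.35, 0.35 and 0.13 (adjusted p = 0.297, 0.322 and 0.682), so none passed on either scale.

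Myd88 had the smallest adjusted p of the members after the repeat dose. Scaled counts were 236, 197 and 180 in saline, 426, 590 and 484 in the early, 462, 299 and 684 in the late and 987, 748 and 748 in the repeat tumors. Every treated tumor lay above every saline tumor. The log2 fold change against saline was 1.29 ± 0.29 in the early group (adjusted p = 0.00866), 1.23 ± 0.29 in the late group (adjusted p = 0.0106) and 2.02 ± 0.29 in the repeat group (adjusted p = 0.000770), the last a fold of 4.05. Without saline tumor B the late call ended at an adjusted p of 0.0522. With the total count as the scale the 3 changes were 0.30, 0.18 and 0.38 and none passed. With TMM scaling they were 0.67, 0.39 and 0.80, of which the late one did not pass (adjusted p = 0.0327, 0.172 and 0.00712). The late call also ended with DESeq2's own size factors (0.38, adjusted p = 0.133) and with the positive controls (0.41, adjusted p = 0.563). It ended as well in a fit of the late and saline tumors alone.

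**Figure D2:**
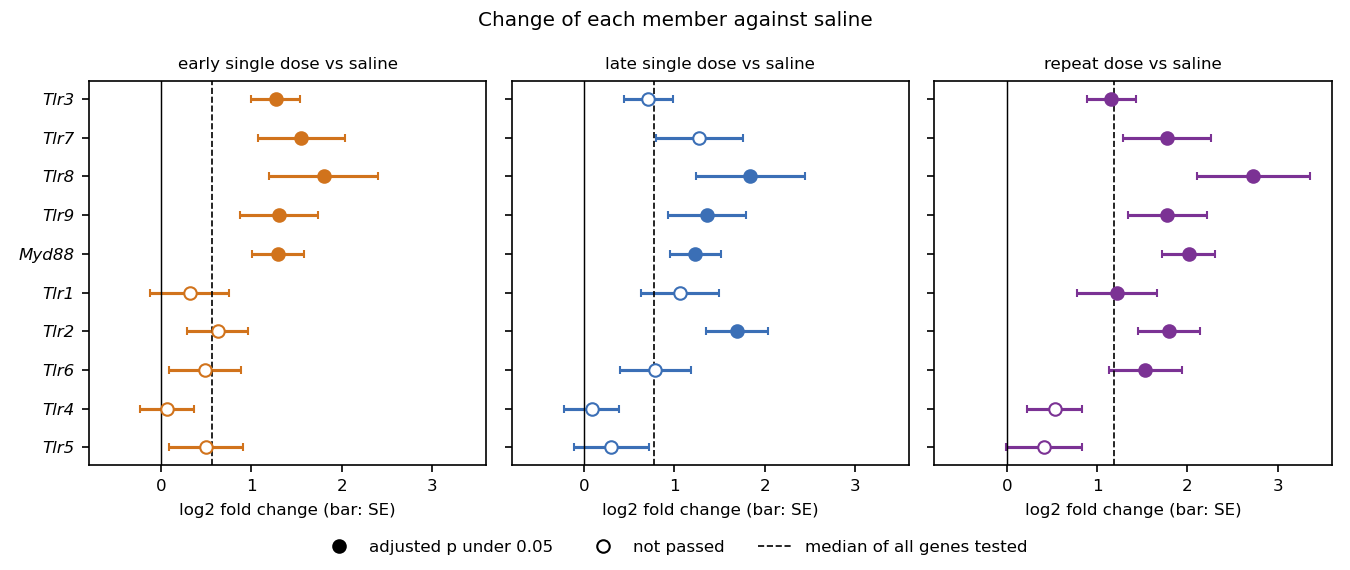
Log2 fold change of each member against saline (horizontal axis, bars are SE) in the early, late and repeat groups; filled points passed an adjusted p of 0.05 and the dashed line is the median of the 729 genes tested. The 4 endosomal receptors and Myd88 are filled in the early panel, Tlr2 first becomes filled in the late panel, and Tlr4 and Tlr5 are open in all 3 panels.

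At 8 days after 1 dose, 4 members had risen against saline: Tlr2, Tlr8, Tlr9 and Myd88. None fell and 6 did not pass, where 39.1% of all genes rose, close to the members' share, and 0.137% fell. Tlr2, Tlr9 and Myd88 were the 3 members with all late tumors above all saline tumors, as were 42.5% of all genes. The median of the members was 1.15, beside 0.78 for all genes. Leaving out late tumor B, the lowest of its group for all 10 members, raised the count to 8. Leaving out saline tumor B lowered it to 1, and leaving out saline C, late A or late C lowered it to 2.

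Tlr2, which pairs with Tlr1 or Tlr6 to bind bacterial lipopeptides, was the surface receptor with the clearest change. It had 99.5, 60.6 and 60.0 in the saline tumors and 120, 123 and 96.3 in the early tumors. The early tumors overlapped with saline and the change of 0.63 ± 0.34 did not pass (adjusted p = 0.186; 95% interval -0.12 to 1.37). The late tumors had 235, 145 and 332 and the repeat tumors 325, 222 and 215, all above every saline and every early tumor. Against saline the log2 fold change was 1.69 ± 0.34 in the late group (adjusted p = 0.00700) and 1.80 ± 0.34 in the repeat group (adjusted p = 0.00171). A fit of the late and saline tumors alone gave an adjusted p of 0.0576 for the late change. With the total count the early change turned to -0.34 and the repeat change fell to 0.17 (adjusted p = 0.474). Late against early, the log2 fold change was 1.07 ± 0.34, which did not pass with housekeeping scaling (adjusted p = 0.276) and passed with TMM scaling (0.87, adjusted p = 0.0383), with the total count (1.00, adjusted p = 0.0152) and with DESeq2's own size factors (0.91, adjusted p = 0.000361).

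The partners of Tlr2 changed less clearly. Tlr1 had 84.8, 66.9 and 34.0 in saline, 69.3, 94.9 and 66.2 in the early, 142, 77.8 and 169 in the late and 197, 156 and 75.7 in the repeat tumors. The groups overlapped with saline in every comparison, and only the repeat change passed (1.22 ± 0.44, adjusted p = 0.0317). That call ended without saline B (adjusted p = 0.0666), saline C (0.105), repeat A (0.133) or repeat B (0.0711), and the direction turned to -0.42 with the total count and to -0.086 with the positive controls as the scale. Tlr6 had 62.1, 56.0 and 49.3 in saline, 96.5, 80.3 and 58.5 in the early, 82.8, 51.9 and 156 in the late and 217, 114 and 154 in the repeat tumors. All repeat tumors lay above saline, with a log2 fold change of 1.53 ± 0.40 (adjusted p = 0.00705), which turned to -0.12 with the total count. The early (0.49 ± 0.39) and late (0.79 ± 0.40) changes of Tlr6 did not pass (adjusted p = 0.407 and 0.140), and with the total count they turned to -0.51 and -0.31. The early change of Tlr1 turned to -0.65 on that scale.

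Tlr4, the lipopolysaccharide receptor, had the steadiest scaled counts of the members. They were 619, 644 and 747 in saline, 671, 777 and 655 in the early, 760, 467 and 910 in the late and 1321, 978 and 597 in the repeat tumors. Every treated group overlapped with saline, and the log2 fold changes were 0.07 ± 0.30, 0.09 ± 0.30 and 0.53 ± 0.30 (adjusted p = 0.919, 0.868 and 0.158). The 95% intervals ran from -0.61 to 0.74, from -0.58 to 0.76 and from -0.15 to 1.20. The direction rested on the scale: with the total count Tlr4 fell by 0.95, 0.98 and 1.18 on the log2 scale in the early, late and repeat groups (adjusted p = 0.00638, 0.00811 and 0.000833). Without repeat tumor C the repeat change was 0.78 and passed (adjusted p = 0.0361).

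Tlr5, the flagellin receptor, lay close to the background of the assay. A tumor's background limit, taken as the negative-probe mean plus 2 SD, ran from 16.6 to 29.2 raw counts. Raw counts of Tlr5 ran from 15 to 95 and exceeded the limit in 10 of 12 tumors, and the 2 below it were repeat tumors B and C with 28 and 15 counts. Its log2 fold changes against saline of 0.50 ± 0.41, 0.30 ± 0.41 and 0.41 ± 0.42 did not pass (adjusted p = 0.410, 0.608 and 0.426), with 95% intervals from -0.40 to 1.40, from -0.60 to 1.21 and from -0.51 to 1.34. With the total count they turned to -0.53, -0.77 and -1.28, the last of which passed (adjusted p = 0.0153). The other 9 members exceeded the limit in all 12 tumors, the nearest being Tlr1, whose lowest raw count of 26 in repeat tumor C was 1.38 times the limit there.

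**Figure D3:**
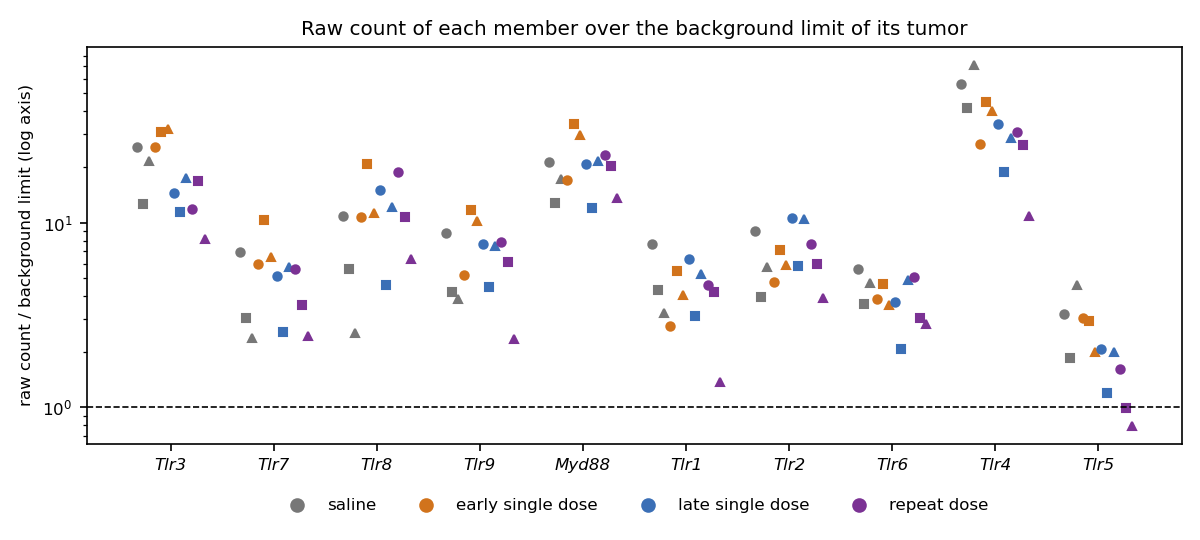
Raw count of each member divided by the background limit of the same tumor (log axis); each symbol is 1 tumor, colored by group (circle, square and triangle are replicates A, B and C), and the dashed line at 1 is the limit. Tlr5 falls below the line in 2 repeat-dose tumors and the other 9 members stay above it.

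After the repeat dose 8 of the 10 members stood higher than in saline, all but Tlr4 and Tlr5, and none fell, where 59.4% of all genes rose and 1.92% fell. In 7 of the 8 (not Tlr1) every repeat tumor lay above every saline tumor, as did 64.1% of all genes. The median of the members was 1.66, beside 1.19 for all genes. The count was 7 to 9 when any 1 tumor was left out, and it was 5 with TMM scaling, of which 3 rose and 2, Tlr4 and Tlr5, fell. The plot of the changes under 5 scales shows that the endosomal receptors and Myd88 stayed above 0 in the early group on every one of them. With the total count all 5 surface receptors lay below 0 there, but so did the median of all genes (-0.43), and 0 members rose. Tlr2 lay above 0 with TMM scaling (0.011), and Tlr2 (0.24) and Tlr6 (0.045) with the positive controls, the other surface receptors being below 0. With the 10 steadier housekeeping probes all surface receptors but Tlr4 lay above 0. The difference between the receptor kinds was not tested.

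**Figure D4:**
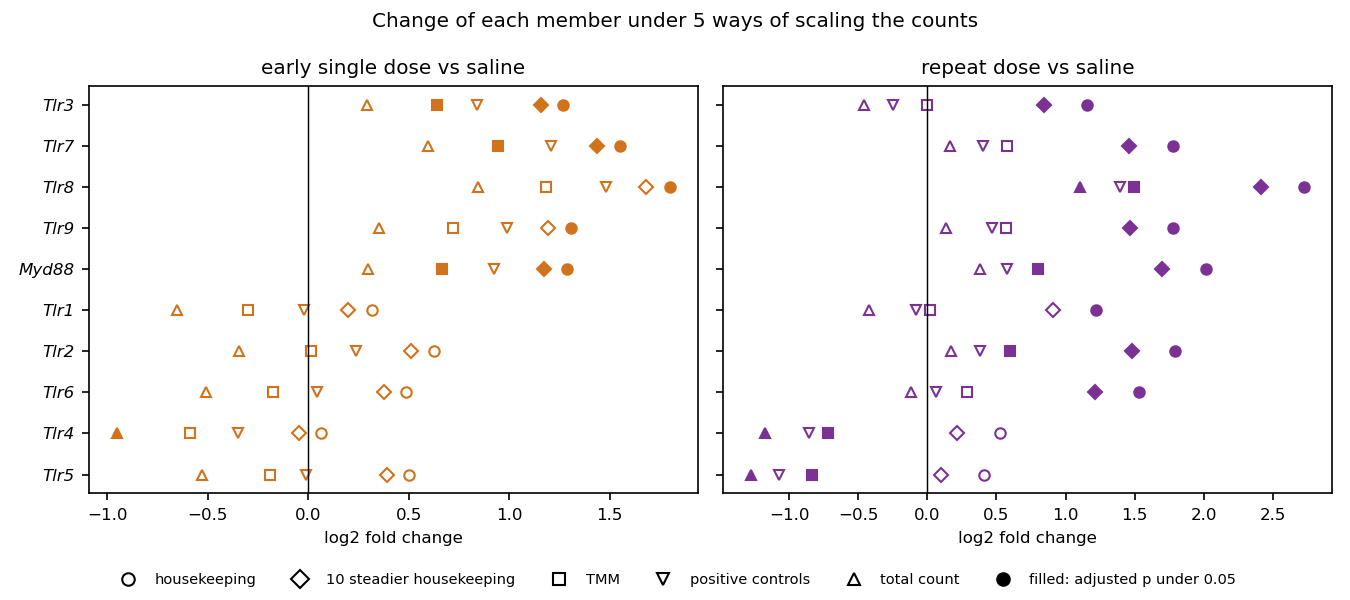
Log2 fold change of each member in the early (left) and repeat (right) groups against saline under 5 ways of scaling the counts, 1 symbol each; filled symbols passed an adjusted p of 0.05. Tlr7, Tlr8, Tlr9 and Myd88 stay to the right of 0 in both panels, while Tlr1, Tlr4, Tlr5 and Tlr6 are left of 0 with the total count in both.

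The second dose was compared with a single dose at the same tumor age. The repeat tumors were collected 2 days and the late tumors 8 days after their last injection, so the number of doses and the time since the last one cannot be told apart here. None of the 10 members passed in repeat against late (0% of 729 genes passed), by edgeR, by limma or by DESeq2. Myd88 was 0.78 ± 0.28 higher on the log2 scale (adjusted p = 0.425), and it was the only member with all repeat tumors above all late tumors, as were 10.7% of all genes. Without late tumor C, Tlr3 (0.79, adjusted p = 0.0418), Tlr6 (1.26, adjusted p = 0.0459) and Myd88 (1.12, adjusted p = 0.0310) passed. Late tumor C was the highest of its group for 86.0% of all tested genes, so leaving it out lowered the late mean for most of the panel. The share of all genes that passed without late tumor C is not given, and whether these calls went beyond the panel was not tested. The effect of the second dose minus that of the first passed for 0 of the 10 members and 0% of all genes by edgeR, limma and DESeq2, with 0 members at an unadjusted p under 0.05. The median of that difference over the members was -0.52, and the value for Tlr3 was -0.83 ± 0.38 (adjusted p = 0.447).

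Late against early, 0 members and 0% of all genes passed by edgeR. By limma the count was 0, and by DESeq2 it was 2 with its own size factors (Tlr2, which rose, and Tlr3, which fell) and 0 with housekeeping factors. Tlr2 was the only member with all late tumors above all early tumors, as were 6.72% of all genes. In repeat against early, 0 members and 0% of all genes passed by edgeR. Tlr2, Tlr6 and Myd88 were the 3 members with all repeat tumors above all early tumors, as were 35.0% of all genes. Tlr2 there had a log2 fold change of 1.17 ± 0.34 (adjusted p = 0.105), which passed with DESeq2 under either scaling (adjusted p = 0.0352 and 0.0217), in a fit of these groups alone (0.0339) and without late tumor C (0.0490).

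Ratios of counts within a tumor do not depend on the scaling. They carry the efficiency of both probes, so only their differences between tumors are described, with no test. Tlr3 over Tlr4 was 0.301 to 0.461 in saline and 0.689 to 0.959 in the early tumors, with no overlap. The late (0.421 to 0.607) and repeat tumors (0.380 to 0.751) overlapped with saline in this ratio. Tlr8 over Tlr4 was 0.0354 to 0.194 in saline, 0.278 to 0.465 in the early, 0.246 to 0.442 in the late and 0.406 to 0.604 in the repeat tumors, so every treated tumor exceeded every saline tumor. Myd88 over Tlr4 likewise went from 0.241 to 0.382 in saline to 0.635 to 0.760 in the early, 0.608 to 0.752 in the late and 0.747 to 1.25 in the repeat tumors. In each treated tumor both Tlr8 and Myd88 thus stood higher against Tlr4 than in any saline tumor. So did Tlr7 and Tlr9, while Tlr2 over Tlr4 overlapped with saline in the early group. Tlr4 itself lay below the median log2 fold change of all genes against saline (-0.49, -0.69 and -0.66 relative to it in the early, late and repeat groups). The share of all genes that separate from saline in this way over Tlr4 is not given. Tlr2 over Tlr3 was 0.185 to 0.230 in the early tumors, below the saline range of 0.266 to 0.349, and 0.511 to 0.735 in the late and 0.358 to 0.648 in the repeat tumors, above it. Tlr2 was therefore lower relative to Tlr3 at 2 days after the first dose and higher in both groups collected at 8 days.

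**Figure D5:**
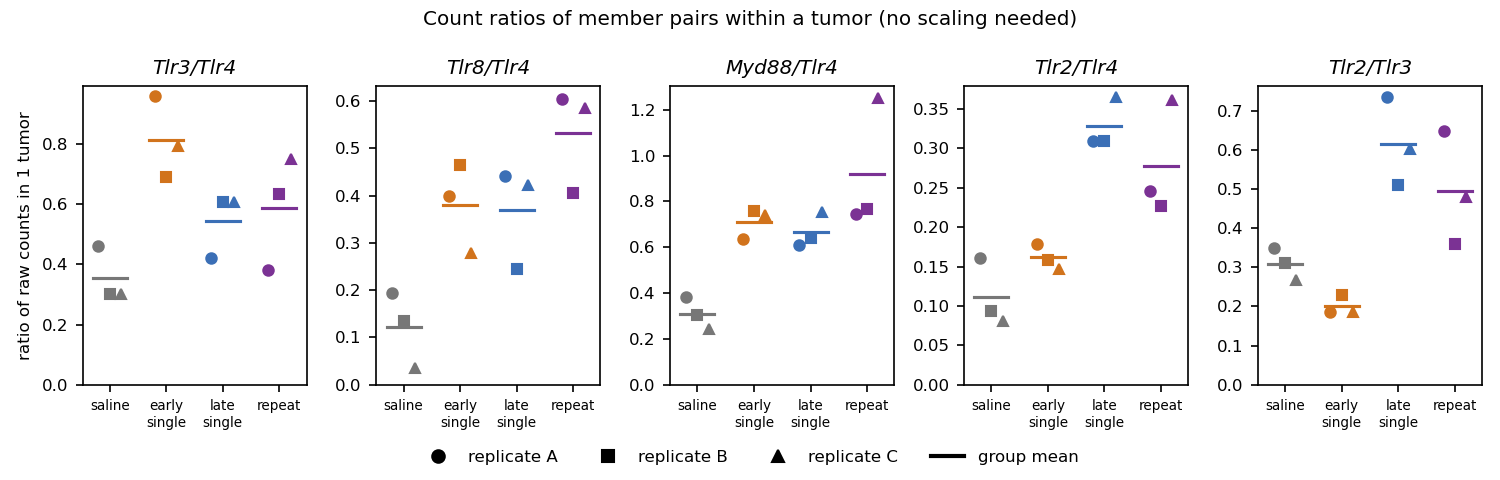
Ratio of raw counts of 2 members in the same tumor (vertical axis) for the 4 groups; each symbol is 1 tumor and bars are group means (n = 3). Tlr8/Tlr4 and Myd88/Tlr4 are higher in every treated tumor than in saline, and Tlr2/Tlr3 is lowest in the early group.

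Tumors of 1 group differed together across the members. Late tumor C was the highest and late tumor B the lowest of its group for all 10 members, and repeat tumor A was the highest for 9. Among all tested genes, late tumor C was the highest for 86.0%, late tumor B the lowest for 70.6% and repeat tumor A the highest for 64.3%. Summed scaled counts of 10 macrophage and monocyte markers moved the same way: 15922 in late tumor C, 6194 in late tumor B and 34227 in repeat tumor A. This was not particular to them: neutrophil, dendritic, NK and T cell sums were also highest in late tumor C and lowest in late tumor B. Neutrophil, dendritic, B and NK cell sums were highest in repeat tumor A. The B cell sum was lowest in late tumor A, and the T cell sum highest in repeat tumor C. Across groups the macrophage and monocyte sum ran from 1044 to 4262 in saline, 5661 to 11402 in the early, 6194 to 15922 in the late and 10022 to 34227 in the repeat tumors. Of its 10 markers, 3, 6 and 9 rose against saline in the early, late and repeat groups, where 30.5%, 39.1% and 59.4% of all genes rose. The counts that follow are in the same order and are to be read beside the same shares. Of 7 neutrophil markers tested, 2, 4 and 4 rose, with Camp above background in 0 tumors and Elane in 3. Of 6 NK cell markers 5, 4 and 5 rose, of 7 T cell markers 0, 5 and 5, of 6 dendritic cell markers 0, 1 and 2, and of 8 B cell markers 0, 1 and 2. The part of these cells in the changes of the receptors was not tested.

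The panel genes most like each member were those whose log2 count ratio to it had the smallest SD over the 12 tumors, among genes above background in all of them. This measure is a description, and all points share the same 12 libraries. Myd88 was closest to Adora2a (SD 0.116) and Irf2 (0.158), where its median over 553 genes was 0.639. Tlr3 was closest to Pml (0.190) and Bid (0.201), and Tlr8 to Selplg (0.181) and Il4ra (0.199). Tlr2 was closest to Tnfsf12 (0.213) and Cd40 (0.235), Tlr4 to Itga1 (0.207) and Il6st (0.216), and Tlr1 to Twist1 (0.195) and Blnk (0.218). Tlr6 was closest to Cd53 (0.232) and App (0.239), Tlr7 to Notch1 (0.265) and Thy1 (0.275), and Tlr9 to Thy1 (0.237) and Il6ra (0.244). Within the members the closest pair was Tlr7 with Tlr9 (0.317), followed by Tlr9 with Myd88 (0.349).

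Genes that work with the receptors were read as lists, each count being out of the members tested and set beside the 30.5%, 39.1% and 59.4% of all genes that rose. The genes named are among those of lowest adjusted p in each list. Their values are given on the housekeeping scale only, on which most of the panel rose. Of 7 receptor partners, 2 rose in the early, 3 in the late and 6 in the repeat group against saline. Lbp, which carries lipopolysaccharide to the receptor, rose early (1.93 ± 0.58, adjusted p = 0.0293). Cd14, the co-receptor that hands lipopolysaccharide to Tlr4, rose in the late (1.76 ± 0.49, adjusted p = 0.0202) and repeat groups (2.57 ± 0.51, adjusted p = 0.00191). Cd36, a scavenger receptor that assists Tlr2 with Tlr6, rose in the late group (2.18 ± 0.43, adjusted p = 0.00700) and the repeat group (3.07 ± 0.45, adjusted p = 0.000770).

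Of 17 adaptors and kinases, 3 rose in the early, 7 in the late and 10 in the repeat group. The median log2 fold changes of this list (0.50, 0.49 and 0.87) lay below those of all genes (0.56, 0.78 and 1.19). Irak2, a kinase recruited by Myd88, rose in all 3, by 1.19 ± 0.38, 1.55 ± 0.38 and 2.06 ± 0.39 on the log2 scale (adjusted p = 0.0377, 0.0141 and 0.00156). Traf6, the ubiquitin ligase that acts after the IRAK kinases, rose early by 0.54 ± 0.16 (adjusted p = 0.0271), about the median of all genes. Of 9 inhibitors of the pathway, 5, 6 and 7 rose. Socs1, a feedback inhibitor of cytokine signalling, went from a mean scaled count of 115 in saline to 1225 in the early, 922 in the late and 2271 in the repeat group, with log2 fold changes of 3.41 ± 0.56, 3.00 ± 0.56 and 4.30 ± 0.59 (adjusted p = 0.00316, 0.00690 and 0.000770).

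Of 12 transcription factors, 6, 5 and 10 rose. Irf8, a factor of the myeloid lineage induced by interferon gamma, went from a mean of 241 in saline to 2280 in the early group, with a log2 fold change of 3.24 ± 0.54 (adjusted p = 0.00316), and Irf7, which acts after Tlr7 and Tlr9, rose early by 2.52 ± 0.63 (adjusted p = 0.0140). Of 20 genes that these receptors can induce, 3, 11 and 16 rose. Cxcl10, a chemokine also induced by interferon, rose by 3.03 ± 0.55, 2.78 ± 0.54 and 3.37 ± 0.56 (adjusted p = 0.00389, 0.00700 and 0.000948). Nos2, the inducible nitric oxide synthase, went from a mean of 35.3 in saline to 231, 608 and 1379, and Tnf rose in the late (2.14 ± 0.46, adjusted p = 0.00810) and repeat groups (2.44 ± 0.47, adjusted p = 0.00173). Of 4 endogenous ligands tested, S100a8 rose in the late (3.09 ± 0.70, adjusted p = 0.00969) and repeat groups (4.56 ± 0.74, adjusted p = 0.000875). Hmgb1, a nuclear protein that acts as a ligand when released, fell by 0.73 on the log2 scale in the early and by 1.14 in the repeat group (SE 0.23 and 0.24, adjusted p = 0.0374 and 0.00212).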

How the data were processed

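One deposited file per tumor gave the raw counts of every probe, unscaled, per the file headers. The series table held signal that the authors had normalized before it was deposited; each gene value equalled the raw count times 1 factor per sample (within 0.00882 percent for counts of 100 or more), proportional to the inverse of the housekeeping mean. Per the labels nSolver was used, its version not given in the sources used here.

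For scaled counts, each raw count was divided by the geometric mean of 20 housekeeping probes, relative to its mean over the 12 tumors. Raw counts were tested with edgeR 4.0.16 (glmQLFit, robust; glmQLFTest) in R 4.3.3, all 12 tumors in 1 fit of 4 groups, library sizes proportional to that mean. The 729 genes above background in at least 3 tumors were tested and 21 left out; p-values were adjusted by Benjamini-Hochberg across those 729. The SE is the log2 fold change over the root of the F statistic, and the 95% interval uses the t quantile at the fit's degrees of freedom. Replicates are separate mice per the labels. The fit was tested on simulated data.

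Alternatives were TMM, total-count, positive-control and steadier-housekeeping scaling, DESeq2 1.42.0, limma 3.58.1 on the authors' values as log2(value + 1) or log2(value + 10), other filters (750 or 562 genes), negative-mean subtraction, fits of only the groups compared, a replicate block and each tumor left out. The members, lists and the rule for named genes were chosen with earlier results of these data known: all members, from each list the 3 genes of lowest adjusted p (some are not described), and the 2 genes most like each member. All 10 members' accessions matched RefSeq under the same symbol.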

Additional observations from a re-analysis of the deposited data

How the results depend on the processing

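Over 25 alternatives, 1587 of 1719 member results kept their side of the threshold, of which 1460 kept their direction and 127 changed sign with neither value past it. Another 93 lost the threshold, 23 gained it and 16 changed sign with 1 of the values past it; the causes were not tested. Members past the threshold in either direction in the early group (5, all rises) were 3 with TMM and with steadier housekeeping probes. They were 1 with the total count, a fall of Tlr4 with 0 rises, and 0 with positive controls. With the negative mean subtracted they were 2, and with 1 tumor left out 2 to 5. In the late group (4) they were 1, 2 and 0 with TMM, total count and positive controls, 2 with steadier probes, DESeq2's own factors or subtraction, 7 with DESeq2 and housekeeping factors, 0 with only the groups compared, and 1 to 8 with 1 tumor left out. Of the 2 with the total count and the 2 with DESeq2's own factors, 1 rose and 1 fell each time. In the repeat group (8) they were 5, 3 and 0 with TMM, total count and positive controls, 5 with DESeq2's own factors, and 7 to 9 with 1 tumor left out. Of these, 3 rose and 2 fell with TMM and with DESeq2's own factors, and 1 rose and 2 fell with the total count. Repeat against late (0) gave 0 to 3 with 1 tumor left out. Late against early (0) gave 1 with TMM, 1 with the total count and 2 with DESeq2's own factors (1 rose and 1 fell). Repeat against early (0) gave 1 with DESeq2 under either scaling, 1 with only the groups compared and 0 to 1 with 1 tumor left out. The joint test (7) gave 3, 3 and 0 with TMM, total count and positive controls, 4 with steadier probes or subtraction, and 2 to 7 with 1 tumor left out. The difference of effects stayed at 0 under every alternative run.

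Of 54 sign changes against saline, 16 involved a value past the threshold. With the total count, Tlr4 was -0.95 early, -0.98 late and -1.18 repeat, and in the repeat group Tlr1 was -0.42, Tlr3 -0.46, Tlr5 -1.28 and Tlr6 -0.12. With positive controls, repeat Tlr1 was -0.086 and Tlr3 -0.25. With TMM, repeat Tlr3 was -0.0013, Tlr4 -0.72 and Tlr5 -0.84. With DESeq2's own factors, late Tlr4 was -0.76, and repeat Tlr3 was -0.012, Tlr4 -0.73 and Tlr5 -0.85.

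The other 38 had no value past the threshold. The lowest were, with the total count, -0.65, -0.34, -0.53 and -0.51 for early Tlr1, Tlr2, Tlr5 and Tlr6 and -0.32, -0.77 and -0.31 for late Tlr3, Tlr5 and Tlr6, and, with positive controls, -0.86 and -1.07 for repeat Tlr4 and Tlr5. Early and late Tlr4 also turned with TMM (-0.59 and -0.75).

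The replicate block lowered the joint count from 7 to 4 and moved no other count by over 1.5 times. Deviations of the 18 same-letter pairs correlated from -0.657 to 0.549 (median 0.0932), and those of the 36 different-letter pairs from -0.688 to 0.609 (median -0.0995). The pairs share tumors and the ranges overlap, so these values cannot decide whether the letters pair the tumors. Tlr5, and Tlr1 in repeat tumor C, lay nearest the background limit.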
